A study of Mus musculus with 6 samples.

Results

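The genes described here are the secreted and cell-surface proteases that cut the extracellular matrix, together with their inhibitors: the ADAMTS and ADAMTS-like genes, the matrix metalloproteases (Mmp genes), the tissue inhibitors of metalloproteases (Timp1 to Timp4) and the HTRA serine proteases (Htra1 to Htra4). They were chosen by symbol among the protein-coding genes of GENCODE M21, which gave 54 genes out of 49315 in the count table; the rule reads symbol and gene type only. All 54 were found in the table by Ensembl gene ID. RNA was taken from the medial ganglionic eminence (MGE), the ventral forebrain zone that makes many cortical interneurons, at embryonic day 14. The WT group was Nkx2.1-Cre; Prdm16+/+; Ai14 and the KO group was Nkx2.1-Cre; Prdm16fl/fl; Ai14, so all pools carried the Nkx2.1-Cre driver, which acts in MGE progenitors, and the Ai14 reporter. Vessels, immune cells and meninges in the dissected tissue come from other lineages. Each group had 3 libraries, each from a pool of 3 embryos.

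ADAMTS enzymes are secreted zinc proteases with thrombospondin repeats. Some of them cut the proteoglycans versican, brevican and aggrecan, which fill the matrix of the developing brain. Matrix metalloproteases cut collagens and many surface proteins and are made as inactive precursors, either secreted or held in the cell membrane. TIMPs block metalloproteases by occupying the active site, and HTRA proteases are serine proteases found outside the cell or, for Htra2, in mitochondria.

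Values are in CPM, read counts scaled to a common effective library size. A gene was called when its Benjamini-Hochberg adjusted p from edgeR's quasi-likelihood test, taken over all 18079 genes tested, was under 0.05. Total counts ranged from 33188277 to 55552298 per library. Library KO 1 stood apart from KO 2 and KO 3 on the second principal component (-34.99 against 11.58 and 12.4), and its Xist level was 1.92 CPM against 721 and 1424 CPM. Chromosome Y genes summed to 165, 99.7 and 175 CPM in the WT libraries and 311, 185 and 56.9 CPM in the KO libraries. The labels do not give the sex of the embryos, and its part in the values was not tested. Prdm16 itself had 49.4 ± 5.55 CPM (SD, n = 3) in the WT pools and 50.2 ± 4.02 CPM (SD, n = 3) in those labelled KO (edgeR adjusted p = 0.884), so whole-gene counts do not check the label, and each direction below rests on it. The MGE genes Nkx2-1 (647 ± 29.4 and 769 ± 118 CPM) and Lhx6 (652 ± 31.2 and 503 ± 26.6 CPM) were high in both groups.

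Of the members, 41 of 54 passed the filter on low counts and 13 did not. No library held more than 17 reads of any of those 13. A gene that passes only through the group where it is high has to differ, so counts over the 41 do not describe all members. The untested genes were Adamts13, Adamtsl5, Htra4, Mmp21 and 9 Mmp genes that lie side by side on chromosome 9 (GRCm38, from 7272514 to 7699585, 427.1 kb). That cluster holds the collagenase genes Mmp1b, Mmp8 and Mmp13, the stromelysin genes Mmp3 and Mmp10, and Mmp7, Mmp12, Mmp20 and Mmp27. Over all 6 libraries it gave 12 reads: the WT libraries held 3, 0 and 1 of them and the KO libraries 2, 0 and 6. Mmp3, Mmp7, Mmp10 and Mmp27 had 0 reads in each library, which allows up to 0.0544 to 0.0896 CPM per library (3 reads, counting error only).

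Upstream sequences are shown because their letters differed between this cluster, with almost no reads, and the other members, a split made with the values known. RefSeq promoter windows (GRCm38.p6) were found for 37 of the 54 genes, and the 250 bases before each start were searched on both strands for TGANTCA (the AP-1 site), TATAAA (the TATA box) and GGGCGG (the GC box). Capitals mark these matches, and no pair of them shares a base in the windows printed. The first 3 sequences are cluster genes, at chr9:7445572-7445821, chr9:7502092-7502341 and chr9:7272264-7272513, all on the plus strand.
Mmp3: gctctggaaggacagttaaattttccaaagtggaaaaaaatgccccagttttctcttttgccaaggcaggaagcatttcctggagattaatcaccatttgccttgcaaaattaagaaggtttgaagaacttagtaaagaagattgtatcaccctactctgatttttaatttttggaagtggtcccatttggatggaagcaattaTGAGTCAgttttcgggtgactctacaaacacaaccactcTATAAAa
Mmp10: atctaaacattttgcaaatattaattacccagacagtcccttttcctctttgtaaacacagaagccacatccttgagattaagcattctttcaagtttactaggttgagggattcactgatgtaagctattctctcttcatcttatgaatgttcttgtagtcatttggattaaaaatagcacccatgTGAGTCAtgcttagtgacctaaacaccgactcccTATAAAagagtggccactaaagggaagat
Mmp13: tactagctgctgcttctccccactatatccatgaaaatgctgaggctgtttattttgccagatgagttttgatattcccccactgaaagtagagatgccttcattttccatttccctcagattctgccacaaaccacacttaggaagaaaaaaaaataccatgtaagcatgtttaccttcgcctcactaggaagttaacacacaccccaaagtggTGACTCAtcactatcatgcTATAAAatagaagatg
The next 3 are members with reads that differed between the groups, Htra1 (chr7:130935953-130936110, plus strand, 158 bases up to the GENCODE start), Adamts18 (chr8:113848840-113849089, minus strand) and Adamts20 (chr15:94404351-94404600, minus strand). The Adamts20 window precedes a RefSeq start but lies inside the GENCODE span of the gene, which runs from 94270163 to 94465418.
Htra1: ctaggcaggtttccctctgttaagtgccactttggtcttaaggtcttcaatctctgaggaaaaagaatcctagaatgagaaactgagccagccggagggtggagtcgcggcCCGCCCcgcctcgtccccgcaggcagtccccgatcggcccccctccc
Adamts18: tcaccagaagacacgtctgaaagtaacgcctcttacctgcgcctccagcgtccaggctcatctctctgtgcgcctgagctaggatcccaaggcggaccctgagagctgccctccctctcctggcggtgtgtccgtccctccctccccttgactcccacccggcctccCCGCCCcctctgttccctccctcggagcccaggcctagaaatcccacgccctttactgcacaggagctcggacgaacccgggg
Adamts20: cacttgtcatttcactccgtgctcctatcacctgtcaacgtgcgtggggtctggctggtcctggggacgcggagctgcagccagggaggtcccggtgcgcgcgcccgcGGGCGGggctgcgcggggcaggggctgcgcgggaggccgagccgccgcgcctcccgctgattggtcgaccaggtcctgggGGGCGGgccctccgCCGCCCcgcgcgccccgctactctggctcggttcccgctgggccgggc

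In the cluster, 7 of 9 genes had TGANTCA in at least 1 window (Mmp1b, Mmp3, Mmp7, Mmp10, Mmp12, Mmp13 and Mmp20), against 0 of the 28 other members with a window and 6.75% of all 32851 windows of this length. The Mmp20 match was TGAATCA, which is not the AP-1 site itself. The Mmp12 match lay in a window (chr9:7347124-7347373) inside the GENCODE span of that gene, which starts at 7344381. TATAAA was found in 6 of the 9 cluster genes, in 3 of the 28 others (Adamts1, Adamtsl2 and Mmp21) and in 12.4% of all windows. GGGCGG was found in 0 of 9 cluster genes and 21 of 28 others, against 32.7% of all windows. The cluster windows were also poor in CpG, with a median of 1 CpG (0 to 7) against 15 (1 to 39) in the other members and 6 over all windows. In Mmp10 the TGANTCA match began 63 bases and the TATAAA match 29 bases before the start. Mmp8 and Mmp27, also in the cluster, held none of the 3 motifs, and Adamtsl5, outside it and too low to test, held GGGCGG. These matches describe letters in a window and not bound sites, and their relation to the read counts was not tested. Of the 7 genes with a window that were called higher or lower, 5 held GGGCGG and 0 held TGANTCA or TATAAA. The other called members, Adamts4, Adamts5, Adamts15, Adamts16, Adamtsl1, Mmp9, Mmp16 and Mmp17, had no window and were not searched.

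Levels were compared between genes as CPM per kilobase of exon. Among the 41 tested members the WT level ran from 0.0578 (Adamts12) to 23.3 (Timp2), with a median of 0.787. The highest in WT were Timp2 (23.3 ± 1.43), the membrane-type protease genes Mmp24 (18.4 ± 1.23) and Mmp15 (11.1 ± 0.789), Adamts7 (10.9 ± 0.171) and the gelatinase gene Mmp9 (10.5 ± 0.881), each SD with n = 3. The last 3 of these lie within each other's spread, while Timp2 and Mmp24 each stood above the next gene by more than their SDs. Htra2, Adamts10, Mmp14, Mmp11 and Mmp17 followed, and these 10 genes were the ones above 5 CPM per kilobase in WT. Summed per kilobase, the 6 membrane-type Mmp genes gave 45.5 ± 1.22 in WT and 46.2 ± 3.78 in KO, and the 4 Timp genes gave 25.4 ± 1.74 and 20.1 ± 2.34. The pair of gelatinase genes gave 12 ± 0.794 and 5.68 ± 0.676, and the 7 proteoglycanase genes of the ADAMTS family gave 7.19 ± 0.286 and 4.9 ± 0.642.

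**Figure D1:**
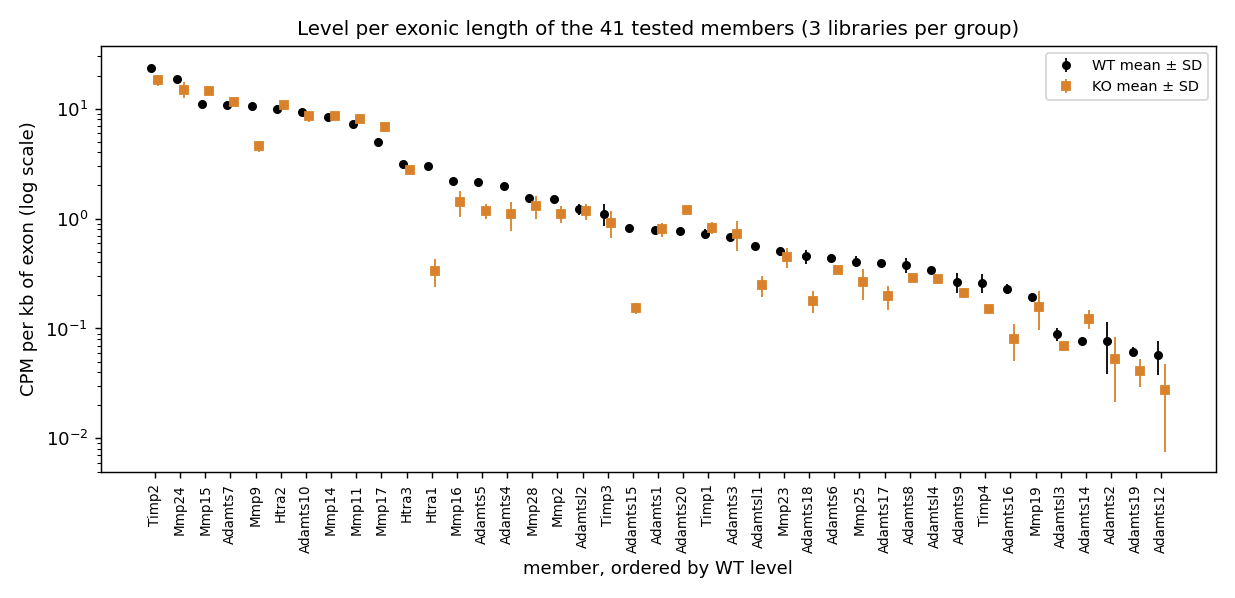
Level per kilobase of exon (CPM per kb, log scale) of the 41 tested members in WT (black circles) and KO (orange squares), mean ± SD of 3 libraries, ordered by WT level. Timp2 is highest at 23.3 in WT, and Htra1, Adamts15 and Mmp9 show the widest gaps between the groups among members above 0.5 in WT.

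Between the groups, 3 of the 41 tested members were higher in the pools labelled KO (7.32%, against 9.72% of all genes tested) and 12 were lower (29.27%, against 10.5% of all genes). In either direction 15 were called, against 20.2% of all genes. The 3 higher genes were Adamts20, Mmp15 and Mmp17. Lower were Htra1, Adamts15, Adamts16, Adamts18, Adamts17, Adamts5, Adamts4, Adamtsl1, Mmp9, Mmp16, Timp2 and Timp4. The median log2 fold change of the 41 was -0.32, and that of all genes tested was 0.00. Of the lower genes 6 differed by at least 2-fold, and of the higher genes 0 did. KO libraries all lay below WT libraries in 20 members (48.78%, against 19.6% of all genes) and all above in 6 (14.63%, against 20.3%), while non-overlap in either direction held for 39.9% of all genes. Without KO 1 the counts were 4 higher and 18 lower of 42 tested, in a comparison that called 20.6% of all genes higher and 20.9% lower. In bulk tissue, fewer cells of a type and less RNA per cell cannot be told apart.

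**Figure D2:**
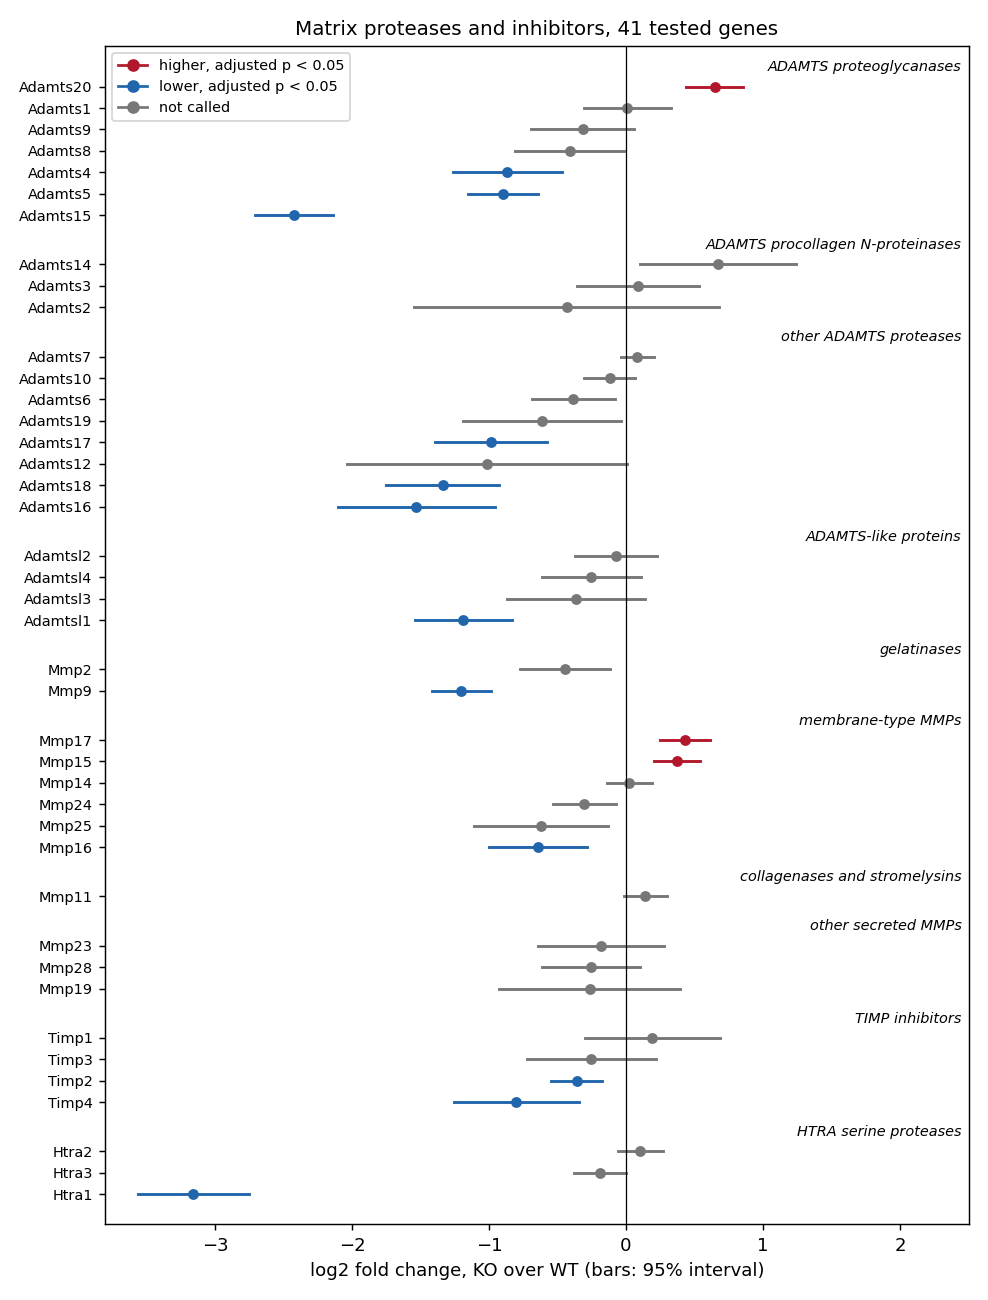
Log2 fold change of KO over WT (horizontal axis, points) with its 95% interval (bars) for the 41 tested members, grouped by family, coloured red (higher), blue (lower) or grey (not called). The 12 lower members sit left of 0, from Timp2 at -0.36 to Htra1 at -3.16, and the 3 higher ones end at 0.65 for Adamts20.

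The widest difference was in the HTRA family and in a single member of it. Htra1 (ENSMUSG00000006205, GRCm38 chromosome 7, 130936111 to 130985660) encodes a secreted serine protease that cuts fibronectin, proteoglycans and proteins of the TGF-beta system. Its level was 8.3, 8.63 and 9.28 CPM in the WT libraries, in the order of their replicate numbers, and 1.2, 0.659 and 1.03 CPM in the KO libraries. Every KO library was far below every WT library, and the lowest was KO 2 with 24 reads. The fall was 8.93-fold (log2 fold change -3.16, SE 0.18, edgeR adjusted p = 1.64e-05). The gene lies inside the annotated span of Fgfr2 on the other strand with 0 shared exonic bases, and Fgfr2 had 94 ± 7.72 and 89.2 ± 6.73 CPM (edgeR adjusted p = 0.497).

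The other HTRA genes did not pass. Htra2, the mitochondrial member, had 29.8, 29.6 and 28.8 CPM in WT and 28.7, 33.3 and 33 CPM in KO (edgeR adjusted p = 0.321), so KO 1 lay just under the WT libraries while KO 2 and KO 3 were above them. Without KO 1 it was called higher (log2 fold change 0.18, edgeR adjusted p = 0.026). Of its exonic bases 25.6% are shared with Aup1 and 18.2% with Loxl3, both on the other strand, and no source used here gives the strand setting of the counting, so such shared reads cannot be told apart. Htra3, a secreted relative of Htra1, had 13.6, 13.3 and 14.7 CPM in WT and 12.2, 11.4 and 12.8 CPM in KO. All KO libraries were lower, but the log2 fold change of -0.19 (95% interval -0.38 to 0.00, edgeR adjusted p = 0.144) missed the threshold. Htra4 was not tested, with 7 to 17 reads per library.

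Among the 7 ADAMTS genes whose proteins cut versican-type proteoglycans, 3 fell, 1 rose and 3 did not pass. Adamts15 (ENSMUSG00000033453, chromosome 9, 30899155 to 30922452) had 8.35, 8.96 and 8.4 CPM in WT and 1.81, 1.54 and 1.45 CPM in KO. The groups were far apart and each was tight, and the gene fell 5.36-fold (log2 fold change -2.42, SE 0.13, edgeR adjusted p = 9.65e-06), the smallest adjusted p of the 41. Adamts5, which encodes a major aggrecan-cutting enzyme, had 21.7, 25.3 and 23.3 CPM in WT and 14.8, 11.8 and 11.1 CPM in KO. KO 1 was the highest of the KO libraries yet still below WT, and the fall was 1.86-fold (edgeR adjusted p = 0.00122).

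Adamts4, another aggrecan- and brevican-cutting enzyme, had 9.36, 9.71 and 9.75 CPM in WT and 7, 3.98 and 4.78 CPM in KO. KO 1 again lay nearest to WT, and the fall was 1.82-fold (edgeR adjusted p = 0.0117). Adamts20 went the other way, with 6.68, 6.78 and 7.17 CPM in WT and 10.7, 10.3 and 11.3 CPM in KO. All KO libraries were above all WT libraries, and the rise was 1.57-fold (log2 fold change 0.65, SE 0.09, edgeR adjusted p = 0.00227). Adamts20 encodes a versican-cutting enzyme known for its part in the spread of pigment cells, and its closest relative, Adamts9, did not pass (3.98 ± 0.832 and 3.19 ± 0.338 CPM, edgeR adjusted p = 0.203).

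Members that share a chromosome position did not all follow each other. Adamts15 and Adamts8 lie 20.1 kb apart on chromosome 9, on opposite strands. Adamts8 had 1.69, 1.49 and 2.03 CPM in WT and 1.38, 1.37 and 1.2 CPM in KO, a difference that did not pass (log2 fold change -0.41, edgeR adjusted p = 0.125). The CPM ratio of Adamts15 to Adamts8 was 4.94, 6 and 4.13 in WT and 1.31, 1.12 and 1.21 in KO, with no overlap. Adamts5 and Adamts1, 53.1 kb apart on chromosome 16, gave ratios of 5.29, 6.42 and 5.19 in WT and 3.05, 2.8 and 3.11 in KO. Adamts1 itself had 4.18 ± 0.279 and 4.22 ± 0.641 CPM (edgeR adjusted p = 0.967, 95% interval of the log2 fold change -0.31 to 0.33). These pairs were chosen for their position after the values were known, so the ratios are a description.

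Of the 9 other ADAMTS protease genes 8 were tested, of which 3 fell and 5 did not pass. Adamts16 and Adamts18 encode a closely related pair of enzymes, and both fell. Adamts16 had 1.47, 1.49 and 1.75 CPM in WT and 0.767, 0.494 and 0.381 CPM in KO, a 2.89-fold fall (edgeR adjusted p = 0.00491). Adamts18 had 5.27, 3.97 and 4.59 CPM in WT and 2.08, 1.34 and 2.01 CPM in KO, a 2.53-fold fall (edgeR adjusted p = 0.00187). In both genes the groups did not overlap, and Adamts16 rests on 18 to 68 reads per library. Adamts17 had 3.03, 3.11 and 3.05 CPM in WT and 1.87, 1.13 and 1.59 CPM in KO, with the WT libraries nearly equal and a fall of 1.98-fold (edgeR adjusted p = 0.00763). Its relative Adamts19 had 0.863 ± 0.0811 and 0.574 ± 0.16 CPM (edgeR adjusted p = 0.117).

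The 2 most abundant ADAMTS genes differed little. Adamts7, whose protein cuts the cartilage matrix protein COMP, had 67.2, 69.3 and 68.8 CPM in WT and 71.2, 76 and 70.4 CPM in KO (95% interval of the log2 fold change -0.04 to 0.20, edgeR adjusted p = 0.292), all KO libraries being slightly above WT. Adamts10, linked to fibrillin microfibrils, had 78.3, 78.1 and 72.8 CPM in WT and 60.8, 76.5 and 73.6 CPM in KO, where KO 1 was the lowest library (95% interval -0.31 to 0.07, edgeR adjusted p = 0.327). Adamts6 (3.44 ± 0.292 and 2.65 ± 0.227 CPM, edgeR adjusted p = 0.073) did not pass although its groups did not overlap. Adamts12 had 0.585, 0.866 and 0.443 CPM in WT and 0.542, 0.11 and 0.254 CPM in KO (edgeR adjusted p = 0.14). It was called lower without KO 1 (edgeR adjusted p = 0.00785), where KO 2 and KO 3 held 4 and 14 reads against 27, 29 and 17 in WT. There it passed the filter on low counts only through the WT libraries, so a difference was built into that call. The 3 procollagen-trimming genes, Adamts2, Adamts3 and Adamts14, gave no call, at log2 fold changes of -0.43, 0.09 and 0.67 (edgeR adjusted p = 0.562, 0.777 and 0.0871).

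ADAMTS-like proteins keep the binding domains of the family without the protease. Of 5 genes 4 were tested and 1 fell. Adamtsl1 had 7.61, 6.48 and 7.35 CPM in WT and 3.93, 2.83 and 2.68 CPM in KO. KO 1 was the highest KO library and the groups stayed apart, with a fall of 2.28-fold (log2 fold change -1.19, SE 0.16, edgeR adjusted p = 0.00158). Adamtsl2, the most abundant of them in CPM per kilobase, had 9.76 ± 1.11 and 9.27 ± 1.47 CPM (edgeR adjusted p = 0.731), and Adamtsl3 and Adamtsl4 did not pass either (edgeR adjusted p = 0.268 and 0.288).

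**Figure D3:**
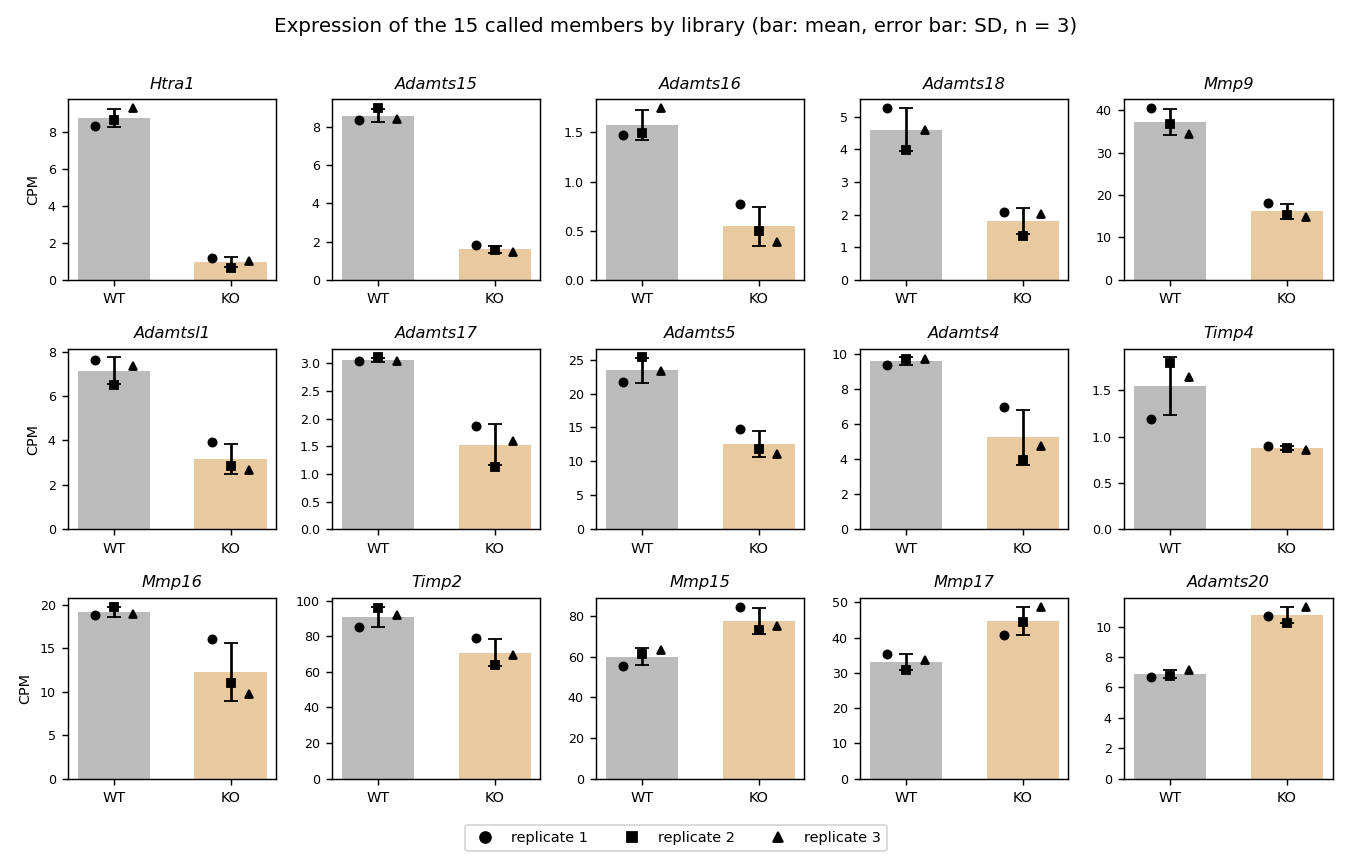
CPM of the 15 called members in each library (vertical axis, from 0), with bars for the mean and error bars for the SD of 3 libraries, and circles, squares and triangles for replicates 1, 2 and 3. The groups do not overlap in any panel, and KO 1 (circle) lies nearest to WT in Adamts4, where it reads 7 CPM against 3.98 and 4.78.

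The gelatinases cut denatured collagen and the type IV collagen of basement membranes. Mmp9 (ENSMUSG00000017737, chromosome 2, 164940780 to 164955850) had 40.5, 36.7 and 34.3 CPM in WT and 18.2, 15.4 and 14.9 CPM in KO. The groups did not overlap, and the fall was 2.3-fold (log2 fold change -1.20, SE 0.10, edgeR adjusted p = 0.000111). Mmp2 had 4.86, 4.96 and 5.5 CPM in WT and 4.4, 3.07 and 3.72 CPM in KO. All KO libraries were lower, but the log2 fold change of -0.45 missed the threshold (edgeR adjusted p = 0.0569). It passed with DESeq2 (adjusted p = 0.0455), with no filter on low counts (edgeR adjusted p = 0.0393) and without KO 1 (edgeR adjusted p = 0.00465).

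The 6 membrane-type Mmp genes were all tested, and 2 rose, 1 fell and 3 did not pass. Mmp15, a transmembrane member, had 55.2, 61.2 and 63.4 CPM in WT and 84.5, 72.8 and 75.2 CPM in KO, and rose 1.29-fold (edgeR adjusted p = 0.0112). Mmp17, which is held by a lipid anchor, had 35.3, 30.8 and 33.5 CPM in WT and 40.8, 44.6 and 48.8 CPM in KO, and rose 1.35-fold (edgeR adjusted p = 0.00863). In both, all KO libraries were above all WT libraries, with KO 1 the highest for Mmp15 and the lowest of the KO libraries for Mmp17. Neither passed a test against a fold of 1.2 (edgeR adjusted p = 0.245 and 0.125).

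Mmp16 had 18.8, 19.8 and 18.9 CPM in WT and 16, 11 and 9.75 CPM in KO, a 1.56-fold fall (edgeR adjusted p = 0.0238). KO 1 was much nearer to WT than KO 2 and KO 3, and leaving out WT 1, WT 2, WT 3, KO 2 or KO 3 singly ended the call (edgeR adjusted p = 0.0593, 0.0825, 0.0735, 0.0859 and 0.0673), as did the test against a fold of 1.2 (edgeR adjusted p = 0.113). Mmp14, the activator of the Mmp2 precursor, had 53, 48.6 and 47.7 CPM in WT and 51.8, 46.1 and 53.9 CPM in KO. Its groups overlapped, and the 95% interval of its log2 fold change ran from -0.14 to 0.19 (edgeR adjusted p = 0.836). Mmp24, a membrane-type gene known from neurons, had 80, 91.4 and 87.4 CPM in WT and 82.8, 63.8 and 62.9 CPM in KO. KO 1 lay among the WT libraries and the gene did not pass (edgeR adjusted p = 0.0638), while it did without KO 1 (log2 fold change -0.44, edgeR adjusted p = 6.08e-05), with DESeq2 (adjusted p = 0.0317) and with no filter (edgeR adjusted p = 0.0292). Mmp25 had 2.15 ± 0.244 and 1.4 ± 0.43 CPM (edgeR adjusted p = 0.0713, and 0.00202 without KO 1).

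The remaining secreted Mmp genes with reads did not pass. Mmp11, a stromelysin that is activated inside the cell, had 20.3, 19.5 and 20.8 CPM in WT and 23.4, 22.1 and 21.4 CPM in KO, higher in each KO library but by a log2 fold change of 0.14 (edgeR adjusted p = 0.175). Mmp28 had 5.94, 6.06 and 5.97 CPM in WT and 6.39, 4.47 and 4.19 CPM in KO (edgeR adjusted p = 0.27). KO 1 was above WT and the other KO libraries below it, and the gene was called lower without KO 1 (edgeR adjusted p = 0.00583). Mmp19 and Mmp23 had means between 0.558 and 1.17 CPM in both groups (edgeR adjusted p = 0.55 and 0.561).

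All 4 inhibitor genes were tested, 2 fell and 2 did not pass, and 3 of them lie inside a synapsin gene. Timp2, whose protein blocks metalloproteases and also helps Mmp14 to activate the Mmp2 precursor, had 84.9, 95.9 and 92.1 CPM in WT and 79.3, 64 and 69.2 CPM in KO. All KO libraries were lower, and the fall was 1.28-fold (log2 fold change -0.36, SE 0.08, edgeR adjusted p = 0.0172). The call was lost without WT 2, WT 3, KO 2 or KO 3 in turn (edgeR adjusted p = 0.0781, 0.0679, 0.0687 and 0.0649). Timp4 had 1.19, 1.79 and 1.64 CPM in WT and 0.903, 0.878 and 0.852 CPM in KO, a 1.74-fold fall (edgeR adjusted p = 0.025). Its KO libraries were nearly equal and below WT, and its call too was lost without WT 2, WT 3, KO 2 or KO 3 (edgeR adjusted p = 0.105, 0.0932, 0.0772 and 0.0916). Neither Timp2 nor Timp4 passed the test against a fold of 1.2 (edgeR adjusted p = 0.32 and 0.0981).

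Reads of a Timp gene and of the synapsin gene around it, which lies on the other strand, cannot be told apart where they overlap. Timp4 shares 1.53% of its exonic bases with Syn2, which was itself 1.33-fold lower (20.3, 26.2 and 27 CPM in WT and 20.8, 17.8 and 16.5 CPM in KO, edgeR adjusted p = 0.0412). The part of Syn2 reads in the Timp4 value was not tested. Timp3, which binds the matrix and also blocks ADAMTS enzymes, had 7.78, 11.3 and 7.82 CPM in WT and 9.93, 6.18 and 6.36 CPM in KO. Its groups overlapped (edgeR adjusted p = 0.413), and it was called lower without KO 1 (log2 fold change -0.50, edgeR adjusted p = 0.0308). It shares 21.3% of its exonic bases with Syn3, which had 13.1, 12.2 and 13.3 CPM in WT and 16.6, 9.2 and 8.32 CPM in KO, so KO 1 was the highest KO library of both genes. Timp1, inside Syn1 on chromosome X with 0 shared exonic bases, had 0.641 ± 0.0657 and 0.731 ± 0.0908 CPM (edgeR adjusted p = 0.56).

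Substrates and partners were read from 6 lists of related genes, in which 6 of 66 tested genes rose and 17 fell. Among matrix substrates 2 of 13 rose and 3 fell. Bcan, the brevican gene, had 29.7, 42.6 and 39.2 CPM in WT and 20.7, 20 and 24.3 CPM in KO (edgeR adjusted p = 0.00515), and Tnr, the tenascin-R gene, fell as well (26.2 ± 2.92 to 18.7 ± 1.61 CPM, edgeR adjusted p = 0.0114). Has2, a hyaluronan synthase gene, rose from 1.11 ± 0.316 to 2.31 ± 0.307 CPM (edgeR adjusted p = 0.0114). Of the link protein genes Hapln3 fell 2.15-fold (edgeR adjusted p = 0.012) and Hapln1 rose from 0.15 to 0.409 CPM (edgeR adjusted p = 0.0311). At that WT mean the WT libraries alone could not pass the filter on low counts, so a difference was built into the Hapln1 call. The most abundant proteoglycan genes in that list, Ncan (495 ± 12.3 and 458 ± 83.6 CPM) and Vcan (296 ± 14.9 and 328 ± 5.35 CPM), did not pass (edgeR adjusted p = 0.493 and 0.0967).

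Of 13 other inhibitors and modulators 2 rose and 4 fell. Spock1 and Spock2, which encode testican proteoglycans, fell 1.71-fold and 1.8-fold (edgeR adjusted p = 0.00321 and 0.0204), with Spock2 at 216, 254 and 238 CPM in WT and 173, 105 and 115 CPM in KO. Serpine2, a serine protease inhibitor gene, fell 1.3-fold (edgeR adjusted p = 0.00741), and Thsd4, a relative of the ADAMTS-like genes, rose 1.81-fold (edgeR adjusted p = 0.00262). Reck, a membrane-anchored inhibitor of metalloproteases, rose 1.22-fold (edgeR adjusted p = 0.0255), and Papln fell 2.59-fold (edgeR adjusted p = 0.0205). Among other metalloproteases 1 of 10 rose and 4 fell. Mme, the neprilysin gene, fell from 4.83 ± 0.767 to 1.21 ± 0.215 CPM (edgeR adjusted p = 0.000216) and its relative Mmel1 fell 2.57-fold (edgeR adjusted p = 0.0422). Ece1 and Ece2 fell 1.33-fold and 1.16-fold (edgeR adjusted p = 0.016 and 0.0388), and Pappa, whose protein cuts IGF binding proteins, rose 1.63-fold (edgeR adjusted p = 0.00732).

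In the list of TGF-beta ligands, their binding proteins and other matrix proteins cut by HTRA enzymes, 0 of 10 rose and 4 fell. Tgfb3 had 29.4, 26.4 and 27.6 CPM in WT and 12.4, 10.7 and 11.3 CPM in KO (edgeR adjusted p = 3.63e-05), while Tgfb1 and Tgfb2 did not pass (edgeR adjusted p = 0.731 and 0.434). Bgn, Ltbp3 and Fbln5 were the other 3 that fell (edgeR adjusted p = 0.0175, 0.0263 and 0.0137). Of 10 activators and clearance receptors Plat, the tissue plasminogen activator gene, rose 1.3-fold (edgeR adjusted p = 0.0208) and Furin, whose protein activates membrane-type proteases, fell 1.27-fold (edgeR adjusted p = 0.02). Lrp1, the endocytic receptor that clears many of these proteases and inhibitors, had 551 and 405 CPM on average (edgeR adjusted p = 0.0551). In the ADAM list 1 of 10 fell, Adam22 (edgeR adjusted p = 0.0225), whose protein has no protease activity, and the surface-shedding enzymes Adam10 and Adam17 did not pass (edgeR adjusted p = 0.517 and 0.76). These list counts stand against 9.72% higher and 10.5% lower among all genes.

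Marker genes of other cell types and regions are set beside these values, against 9.72% of all genes higher and 10.5% lower. Of 10 mural cell (pericyte) genes 8 fell and 0 rose, among them Higd1b (1.03 ± 0.144 to 0.254 ± 0.08 CPM) and Pdgfrb (29.2 ± 1.48 to 22.1 ± 3.4 CPM). Higd1b passed the filter on low counts only through the WT libraries, so a difference was built into its call. The summed level of the mural list was 241.9 to 254.4 CPM in WT and 196.3 to 263.2 CPM in KO. Notch3, the most abundant gene of that list, was not called, but each KO library was above each WT library. With Notch3 left out, a choice made after the values were known, the sums were 148, 146 and 147 CPM in WT and 123, 87 and 95.4 CPM in KO. In that sum all KO libraries lay below WT. Of 12 endothelial genes 3 fell and 0 rose (summed 252.7 to 256.7 CPM in WT and 199.3 to 232.7 CPM in KO, and 8 falls and 2 rises without KO 1), and of 10 microglia genes 2 fell and 0 rose (43.8 to 46.1 and 35.3 to 41.3 CPM). The meningeal fibroblast list held 1 fall among 8 tested genes, Ogn, with summed levels of 22.4 to 22.9 and 21.4 to 22.7 CPM, and its markers Lum, Dcn, Aldh1a2 and Slc6a13 were too low to test. In the list of astrocyte and late glial genes 5 of 8 tested fell and 1 rose. Its summed levels overlapped, at 279.4 to 303.6 CPM in WT and 273 to 290.8 CPM in KO. Aldh1l1 fell from 23.4 ± 1.44 to 4.82 ± 1.69 CPM and Hepacam from 5.53 ± 0.731 to 0.753 ± 0.247 CPM, while the astrocyte genes Gfap and Gjb6 were near 0 in both groups. All 10 radial glia genes rose, with summed levels of 1960 to 2065 and 2892 to 3410 CPM. Red cell genes (4 of 8, and 6 without KO 1) and cortical excitatory genes (5 of 8, and 3 without KO 1) rose too, with 0 falls in either list. In the list for the neighbouring lateral and caudal eminences 7 of 12 genes fell and 1 rose, with overlapping sums of 567.2 to 633.2 CPM in WT and 585 to 654.3 CPM in KO. Of 10 MGE lineage genes 3 fell and 2 rose, and 5 fell and 3 rose without KO 1. The choroid plexus list summed to 12 to 14 CPM in WT and 28.3 to 34.9 CPM in KO, with 1 rise (Otx2) among 3 tested genes, while Ttr, Folr1 and Kcnj13 were too low to test. Of 8 general neuron genes 2 fell and 0 rose, with sums of 5474 to 5689 CPM in WT and 4942 to 5276 CPM in KO. Of 6 oligodendrocyte precursor genes 2 fell and 1 rose, with sums of 186 to 194.4 CPM in WT and 201.1 to 239.4 CPM in KO. The part of these cell types and regions in the member values was not tested.

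**Figure D4:**
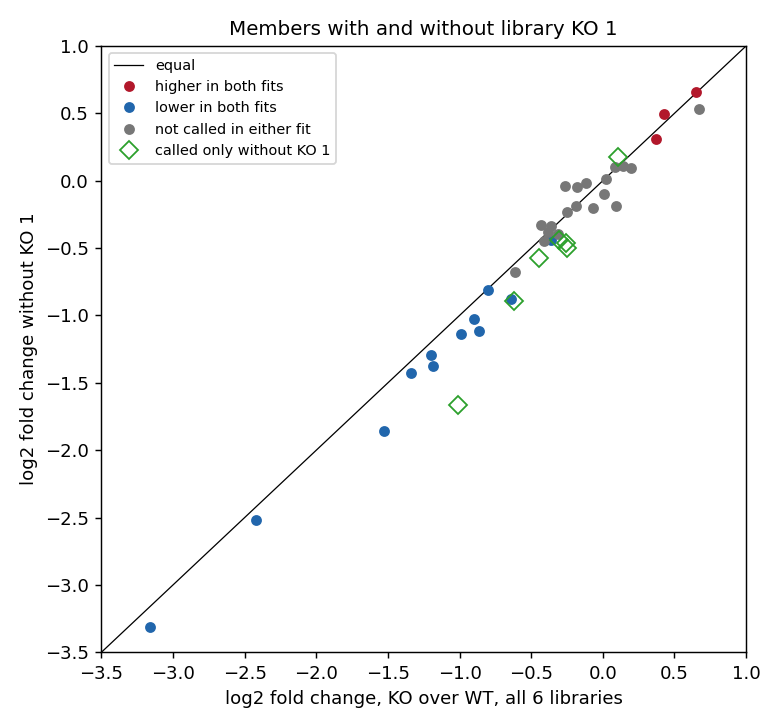
Log2 fold change of KO over WT for the tested members with all 6 libraries (horizontal axis) and without KO 1 (vertical axis), with the line of equal values. Green diamonds mark members called only without KO 1, among them Mmp2 (-0.45 and -0.57), and Htra1 lies at -3.16 and -3.31.

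With KO 1 left out, all 15 calls remained. Calls over all genes rose as well, to 3752 higher and 3804 lower, and 7 more members passed: Adamts12, Mmp2, Mmp24, Mmp25, Mmp28 and Timp3 as lower and Htra2 as higher. Of these, Adamts12 passed the filter on low counts only through the WT libraries. In that comparison Htra1 had a log2 fold change of -3.31 (edgeR adjusted p = 6.84e-08), Adamts15 -2.52 (edgeR adjusted p = 6.84e-08) and Mmp9 -1.29 (edgeR adjusted p = 2.17e-07). Adamts20 stood at 0.66 (edgeR adjusted p = 0.000204). Over all 15 alternative fits Htra1 ranged from -3.31 to -2.97, Adamts15 from -2.52 to -2.34 and Mmp9 from -1.29 to -1.13 in log2 fold change.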

How the data were processed

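Total RNA from pooled, dissected embryonic MGE tissue gave 6 libraries. For each Ensembl gene the authors deposited an unnormalized read count. The submitters' processing notes name GRCm38, DESeq2, featureCounts, Trimmomatic (0.36), STAR (2.5.2b) and Subread (1.5.2), with no settings; annotation release and strandedness are not given in the sources here. A second table, the same counts rescaled, was not used.

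The labels gave group and replicate number. They do not say whether the pools came from separate litters, so p-values measure the spread between these pools. Symbols, positions and exonic lengths came from GENCODE M21, in which 49056 of 49315 gene IDs were found. Genes were kept by filterByExpr at a minimum count of 10 and total of 15, scaled by TMM and fitted with edgeR 4.0.16 (R 4.3.3), robust quasi-likelihood. The standard error is the log2 fold change over the square root of F, and intervals are at 95%. The biological coefficient of variation was 9.52%. Alternatives used DESeq2 1.42.0, limma 3.58.1 (voom), other scalings, filters and thresholds, a replicate block, and each library left out.

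Members and lists were chosen with earlier results of these data known. The Timp and Htra genes, all called members, uncalled members from 5 CPM and up to 4 genes of each related list could be named, and others were named after their values were seen. Promoter windows came from RefSeq (GRCm38.p6).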

Additional observations from a re-analysis of the deposited data

How the results depend on the processing

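Of 224 pairs of a called member and an alternative fit, 204 kept direction and call, 20 were no longer called and 0 reversed. These 20 belonged to Timp2, Timp4, Mmp16, Mmp15 and Mmp17. Members called lower numbered 9 to 18 and members called higher 3 to 4 with 1 library left out. RLE and upper-quartile scaling, limma voom and no robust spread each gave 3 higher and 12 lower, DESeq2 3 and 14, no filter 3 and 15, and a stricter filter, which leaves out Timp4, 3 and 11. A test against a fold of 1.2, which asks for a larger change, left 1 higher (Adamts20) and 9 lower. Over all genes that test gave 310 higher and 540 lower, a threshold of 0.01 gave 360 and 583, one of 0.1 gave 2732 higher, and with single libraries omitted the higher genes ranged from 464 to 3752 and the lower from 727 to 3804, both highest without KO 1. The replicate block gave 3 higher and 10 lower members, losing Timp2 (edgeR adjusted p = 0.0537) and Timp4 (edgeR adjusted p = 0.0573), and 862 higher and 1219 lower genes overall. Same-numbered libraries deviated with correlations of -0.08, -0.12 and 0.03, so the numbers are not taken to pair the samples. Members with few reads, such as Adamts2 (95% interval of the log2 fold change -1.55 to 0.68), have wide intervals at this depth.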
